A study of Mus musculus with 12 samples.

Results

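Receptors for colony-stimulating factors and other cytokines were followed in the RNA of mouse blood neutrophils, through 10 genes of the 11494 in the deposited table. The genes were taken by name from a list of receptors with known roles in neutrophils, not for their values. Csf3r, Csf2ra, Csf2rb, Csf2rb2 and Csf1r belong to the colony-stimulating factor system. Il6ra, Il17ra, Il4ra, Il10ra and Ifngr1 encode receptor chains for interleukins and interferon-gamma. The series title places the samples in a study of loss of the Y chromosome in blood-forming cells, cardiac fibrosis and heart failure, and the comparison asks whether these transcripts differ between neutrophils from LOY and control marrow.

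The LOY group held 6 libraries of blood neutrophils after a bone marrow transplant labelled LOY BMT, numbered 4, 5, 9, 10, 15 and 19. The Control group held 6 libraries after a transplant labelled Control BMT, numbered 1, 2, 6, 12, 17 and 18. The genotype label was LOY or Control, and the treatment label was Control in both groups. For every sample 10000 cells positive for Ly6G and RFP and negative for CD115, the protein that Csf1r encodes, were sorted from blood after lysis of red cells. The labels give no age, sex or strain, and do not say how the Y chromosome was removed, what drives RFP or what blood cells the hosts kept. Nor do they tie a library to its own animal, and p-values therefore reflect no more than the spread among the 12 libraries, which may be technical.

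Neutrophils are short-lived white blood cells that leave the bone marrow, circulate briefly and enter inflamed tissue. Granulocyte colony-stimulating factor (G-CSF), acting on the receptor encoded by Csf3r, drives their production and release, and granulocyte-macrophage colony-stimulating factor (GM-CSF) prolongs their survival and primes them. Most of these receptors have no kinase of their own and signal through Janus kinases (JAKs) and STAT transcription factors. Csf1r is itself a tyrosine kinase, and the interleukin-17 receptor works through adaptor proteins, TRAF proteins among them.

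Csf2rb and Csf2rb2 are neighbouring genes on mouse chromosome 15 (GRCm38, chr15:78325752-78353847 on the plus strand for Csf2rb, chr15:78282507-78305721 on the minus strand for Csf2rb2). Csf2rb encodes the common beta chain shared by the receptors of GM-CSF, interleukin-3 and interleukin-5, and Csf2rb2 a beta chain that in mice serves interleukin-3. Their coding sequences in GENCODE vM21 are 2688 bases long for Csf2rb and 2634 bases for Csf2rb2, and are identical at 95.24% of 2628 aligned bases, with 125 mismatches. The longest stretch they share without a mismatch is 242 bases, and 54.0% of the coding sequence of Csf2rb2 lies in shared stretches of 50 bases or more. Windows of 120 bases of coding sequence, a length set for display, show where these genes are most and least alike. They are written 5′ to 3′ on the strand of each gene with mismatches in capitals. Exon bases outside the coding sequence were not compared. The most alike window, from chr15:78348577-78348696 in exon 15 of Csf2rb and chr15:78284752-78284871 in exon 14 of Csf2rb2, has 0 mismatches, and the least alike, from chr15:78338867-78338986 in exon 5 of Csf2rb and chr15:78294345-78294464 in exon 4 of Csf2rb2, has 16.
Csf2rb, most alike: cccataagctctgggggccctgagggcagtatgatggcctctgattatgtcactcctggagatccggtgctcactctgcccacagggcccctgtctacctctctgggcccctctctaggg
Csf2rb2, most alike: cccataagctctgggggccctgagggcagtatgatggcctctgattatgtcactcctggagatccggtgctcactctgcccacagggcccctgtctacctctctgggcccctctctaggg
Csf2rb, least alike: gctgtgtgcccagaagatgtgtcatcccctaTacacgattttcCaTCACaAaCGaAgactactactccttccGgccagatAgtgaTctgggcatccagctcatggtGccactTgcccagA
Csf2rb2, least alike: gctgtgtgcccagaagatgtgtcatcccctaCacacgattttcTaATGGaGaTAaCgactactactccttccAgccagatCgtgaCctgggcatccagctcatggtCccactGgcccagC
A read from an identical stretch cannot be assigned to either gene, and the sources used here do not give how the authors' counting treated such reads. The values of both genes are uncertain to that degree, those of Csf2rb2 more so because it had far fewer reads.

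Recovered reads per library ranged from 17097739 to 19616066 in the LOY group and from 13743581 to 18459792 in the Control group. Listed genes at 0 made up 6.6% to 11.6% of LOY libraries and 9.3% to 21.7% of control libraries, with the highest shares in Control 2 (21.7%), Control 1 (20.5%) and Control 12 (17.3%). The Y-linked genes Ddx3y and Eif2s3y averaged 68.7 ± 146 and 179.7 ± 396 normalized reads in LOY libraries, against 1054 ± 267 and 2348 ± 590.2 in control libraries (SD, n = 6 each). The library labelled LOY 4 went partly against its label, since its share of reads from 4 Y-linked genes was 39.8% of the control mean, against 0.0746% to 3.10% in the other 5 LOY libraries. Neutrophil markers were abundant, and 10 of 10 (S100a8 and S100a9 highest) summed to between 1177344 and 1871343 normalized reads in LOY libraries and between 1178722 and 2292554 in control libraries. A bulk library measures the RNA of all sorted cells together, so fewer cells of a type and less RNA per cell cannot be told apart.

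Csf3r, at chr4:126024550-126044440 in GRCm38, stood far above the other receptor genes. Per 1000 exon bases it averaged 45966 ± 3818 normalized reads in LOY libraries and 41487 ± 6603 in control libraries (SD, n = 6 each), and it was the highest of the 10 in 12 of 12 libraries. It took 0.889% to 1.18% of all recovered reads in LOY libraries and 0.591% to 1.07% in control libraries. By reads per length it ranked between 15 and 22 in LOY libraries and between 15 and 32 in control libraries among the 11475 genes with an annotated length. The G-CSF receptor was thus among the most abundant listed transcripts of every library, and the order below it was much flatter.

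Csf2ra, which encodes the GM-CSF binding chain, came next at 3305 ± 1348 normalized reads per 1000 exon bases in LOY libraries and 3973 ± 717 in control libraries. The mean of Csf3r over all 12 libraries was 12.0 times that of Csf2ra per length. Ifngr1, the ligand-binding chain for interferon-gamma, averaged 2599.98 ± 395 in LOY libraries and 2042 ± 619 in control libraries per 1000 exon bases. These genes and the next 4 lay close together, and of all neighbours in the order only Csf3r and Csf2ra had ranges over libraries that did not overlap.

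Csf2rb averaged 2009 ± 261 normalized reads per 1000 exon bases in LOY libraries and 1947 ± 251 in control libraries. Csf1r, the receptor of macrophage colony-stimulating factor, averaged 2155 ± 397 in LOY libraries and 1607 ± 445 in control libraries on the same scale. Csf2rb lay above Csf1r in 6 of 12 libraries, and the group means put Csf1r in place 4 in the LOY group and in place 5 in the Control group. Their order was therefore not separated by the spread between libraries.

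Il17ra, the chain shared by the interleukin-17 receptors, averaged 1627 ± 842 normalized reads per 1000 exon bases in LOY libraries and 1596 ± 658 in control libraries. Il4ra, which binds interleukin-4 and takes part in the interleukin-13 receptor, averaged 1368 ± 60.2 in LOY libraries and 1119 ± 274 in control libraries on that scale. The low end held Il10ra, Il6ra and Csf2rb2. Il10ra, the ligand-binding chain for interleukin-10, averaged 404 ± 134 per 1000 exon bases in LOY libraries and 463 ± 115 in control libraries. Il6ra, the interleukin-6 binding chain, averaged 128 ± 57.4 in LOY libraries and 199 ± 113 in control libraries, and Csf2rb2 averaged 106 ± 19.6 in LOY libraries and 135 ± 34.2 in control libraries on this scale. Csf2rb2 was the lowest of the 10 in 7 libraries and Il6ra in the other 5.

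**Figure D1:**
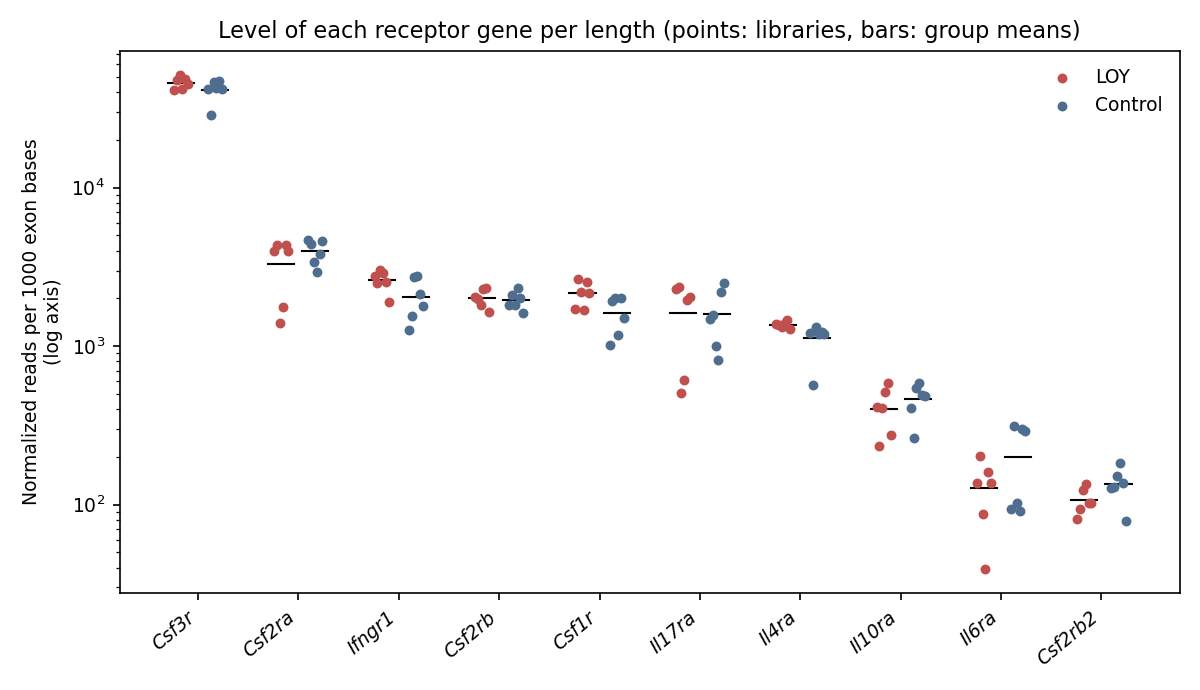
Level of the 10 receptor genes in normalized reads per 1000 exon bases, on a log axis, with a point for each of the 6 LOY and 6 Control libraries (LOY left of Control) and a bar at each group mean. Csf3r lies above every other receptor gene in 12 of 12 libraries, while Csf2ra, Ifngr1, Csf2rb, Csf1r and Il17ra overlap with their neighbours.

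None of the 10 receptor genes passed an adjusted p of 0.05 between LOY and Control (limma on log2(value + 1), Benjamini-Hochberg over all 9742 genes tested), and 0 of them passed with edgeR or DESeq2 on the recovered reads. Of all tested genes 0.0205% passed with limma, which is 2 genes, both higher in LOY. The Y-linked genes Ddx3y and Eif2s3y did not pass, although every LOY library lay below every control. Their limma log2 fold changes were -6.65 for Ddx3y (adjusted p = 0.189) and -7.26 for Eif2s3y (adjusted p = 0.214). A large difference can thus fail to pass this test. At an unadjusted p under 0.05, 1 of the 10, Csf1r, was past the mark, where 6.04% of all tested genes were, and it lay higher in LOY, as did 4.40% of tested genes at that p. Log2 fold changes of LOY over Control were positive for 5 of the receptor genes and negative for 5, with a median of -0.03. The median was 0.14 over all tested genes and 0.0015 over the 3582 tested genes averaging at least 500 normalized reads, and quantile normalization moved the median of all tested genes to 0.00062. None of the 10 had LOY and Control libraries that did not overlap, while 0.175% of tested genes had all LOY libraries above all controls and 0.113% had them all below.

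**Figure D2:**
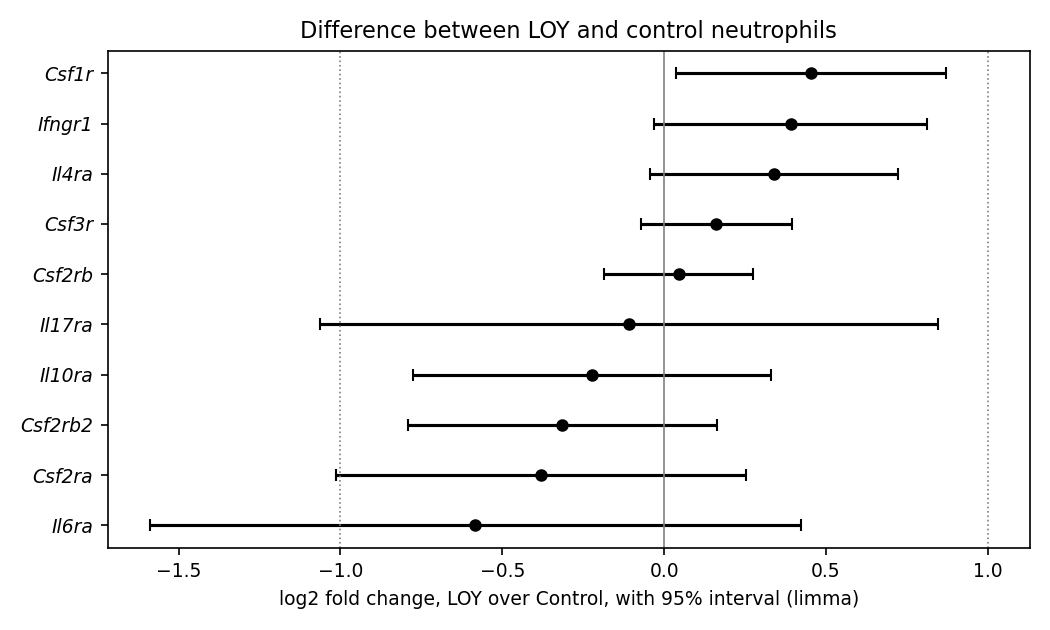
Log2 fold change of LOY over Control for each receptor gene, with points for the limma estimate, bars for its 95% interval and dotted lines at a log2 change of 1 in either direction. The interval of Csf1r, 0.04 to 0.87 before adjustment over all tested genes, leaves out 0, and the intervals of Il6ra, Il17ra and Csf2ra are the widest.

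Csf3r had a lowest, median and highest value of 149175, 166812 and 184446 normalized reads in LOY libraries, against 104006, 153266 and 170629 in control libraries. In 3 of 6 LOY libraries it lay above the highest control, and Control 2 lay far below all other libraries. The means were 165891 ± 13779 normalized reads in LOY libraries and 149726 ± 23830.4 in control libraries, and the log2 fold change was 0.16 ± 0.11 (SE, 95% interval -0.07 to 0.39, limma, adjusted p = 0.826). Without Control 2 it was 0.060, and it was -0.022 when each library's share of zeros entered as a covariate. The coefficient of variation of Csf3r, 8.31% in LOY libraries and 15.9% in control libraries, was low against medians of 22.1% in LOY libraries and 31.1% in control libraries over tested genes averaging at least 500 normalized reads. Most of those genes lay far below Csf3r, and no comparison was made with genes of its level alone.

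The chains of the GM-CSF receptor differed in how steady they were. Csf2ra, at chr19:61223957-61228429 in GRCm38, had a lowest, median and highest value of 4003, 11418 and 12512 normalized reads in LOY libraries, against 8376, 11845 and 13514 in control libraries. LOY 9, at 4003, and LOY 10, at 5096, lay below every control, and the other 4 LOY libraries lay within the control range. For Csf2ra the log2 fold change was -0.38 ± 0.29 (SE, 95% interval -1.01 to 0.25, limma, adjusted p = 0.840), and it was -0.16 without LOY 9 and -0.23 without LOY 10.

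Csf2rb spanned nearly the same range in both groups, with a lowest, median and highest value of 11891, 14577 and 16814 normalized reads in LOY libraries and 11771, 13923 and 16936 in control libraries. Its log2 fold change was 0.04 ± 0.11 (SE, 95% interval -0.19 to 0.28, limma, adjusted p = 0.938), an interval that runs from 0.880 to 1.21 times the control level. Csf2rb2, whose reads are uncertain because of the shared sequences printed above, had a lowest, median and highest value of 387, 484 and 638 normalized reads in LOY libraries, against 375, 633 and 870.0 in control libraries. In 5 of 6 LOY libraries Csf2rb2 lay below the control median, yet the lowest value of all was Control 18. The log2 fold change was -0.31 ± 0.22 (SE, 95% interval -0.79 to 0.16, limma, adjusted p = 0.832), and without Control 18 it was -0.46.

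Csf2rb2 made up 3.37% ± 0.67 of the reads of this beta-chain pair in LOY libraries and 4.26% ± 0.73 in control libraries (SD, n = 6 each). The lowest share was 2.55% in the library labelled LOY 4 (95% Wilson interval 2.31% to 2.81%) and the highest was 5.13% in Control 6 (4.77% to 5.51%), and these intervals cover counting error only. The log2 ratio of Csf2rb2 over Csf2rb averaged -4.86 ± 0.30 in LOY libraries and -4.51 ± 0.27 in control libraries. The difference of -0.36 did not pass adjustment over the 7 chain ratios computed (exact permutation test, two-sided, p = 0.0519, adjusted p = 0.364), and the smallest p this design can give is 0.00216. The ratio of Csf2ra over both beta chains together averaged -0.80 ± 0.77 in LOY libraries and -0.39 ± 0.42 in control libraries on the log2 scale, a difference of -0.41 (exact permutation test, p = 0.275, adjusted p = 0.385) that was -0.21 without LOY 9 and -0.22 without LOY 10. Its lowest values were -1.79 in LOY 9 and -1.76 in LOY 10, against a lowest control value of -1.09 in Control 12.

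Csf1r, at chr18:61100598-61132149 in GRCm38, was the receptor gene with the smallest p. It had 9859, 15221, 12739.7, 9734, 14566 and 12534 normalized reads in LOY 4, 5, 9, 10, 15 and 19, against 5850.4, 11169, 11550.5, 6747, 11687 and 8669 in Control 1, 2, 6, 12, 17 and 18. In 4 of 6 LOY libraries it lay above the highest control, and the remaining LOY libraries, 4 and 10, lay within the control range. The means were 12442 ± 2295 in LOY libraries and 9279 ± 2572 in control libraries, and the log2 fold change was 0.45 ± 0.19 (SE, 95% interval 0.04 to 0.87, limma, unadjusted p = 0.0358, adjusted p = 0.810). The authors' deposited table gives a log2 fold change of 0.42 with a p-value of 0.0281 and an adjusted p-value of 0.739.

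The size of the difference in Csf1r depended on which controls were kept. Without Control 1, 2 and 12, the libraries with the most genes at 0, the log2 fold change was 0.22, though leaving out 1 of them at a time gave 0.33 without Control 1, 0.52 without Control 2 and 0.37 without Control 12. The value was 0.23 when each library's share of zeros entered as a covariate. Without the library labelled LOY 4 it was 0.52. Over 26 alternatives the log2 fold change ranged from 0.22 to 0.53, the unadjusted p was under 0.05 in 14 of them, and the lowest adjusted p was 0.565.

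The sort was against CD115, yet every library held 5850.4 or more normalized reads of Csf1r RNA. Monocytes carry CD115, so their markers were read beside this gene. Of 14 monocyte and macrophage markers 7 were in the table, with Mpeg1 and Cd68 highest, and their sum was 9735 to 14737 normalized reads in LOY libraries and 11839.9 to 21668 in control libraries. Of the 7, 5 were tested and 0 passed, with log2 fold changes from -0.57 for Ly6c2 to 0.16 for Nr4a1, and -0.21 for Mpeg1 and -0.076 for Cd68. The other 2, Irf8 and F13a1, lay below the filter. Irf8, a transcription factor of monocytes and some other blood cells, was at 28.0, 122, 228, 0, 69.7 and 0.864 normalized reads in LOY 4, 5, 9, 10, 15 and 19 and at 0 in all 6 control libraries, while F13a1 was at 79.5 in LOY 5, 138 in LOY 15 and 0 in the other 10 libraries. The authors' deposited table gives an adjusted p-value of 0.00306 for Irf8 and 1e-08 for F13a1. Irf8, F13a1, Ly6c2 and Nr4a1 were named after their values were seen. Markers such as Ccr2, Cx3cr1, Klf4, Ms4a6c, Fn1 and Fcgr1 had no row in the table analysed here. Irf8 and F13a1 made up little of the marker sum, which therefore does not show their pattern. That sum was highest in Control 2 and Control 1. Whether monocyte RNA had a part in the Csf1r values was not tested.

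Csf1r also shares 873 exon bases with Hmgxb3 on the opposite strand, and the kit does not mark strand. Hmgxb3 averaged 95.8 normalized reads over all libraries. Whether reads from the shared bases had a part in the Csf1r values was not tested. Set against Csf3r, Csf1r had a log2 ratio of -3.75 ± 0.19 in LOY libraries and -4.05 ± 0.53 in control libraries, a difference of 0.29 (exact permutation test, p = 0.234, adjusted p = 0.385) that was 0.46 without Control 2 and 0.16 without Control 1. Csf1, its ligand and the only 1 of 13 listed ligands in the table, averaged 3202 ± 1146 normalized reads in LOY libraries and 4267 ± 1242 in control libraries, with a log2 fold change of -0.44 ± 0.24 (SE, limma, adjusted p = 0.810).

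**Figure D3:**
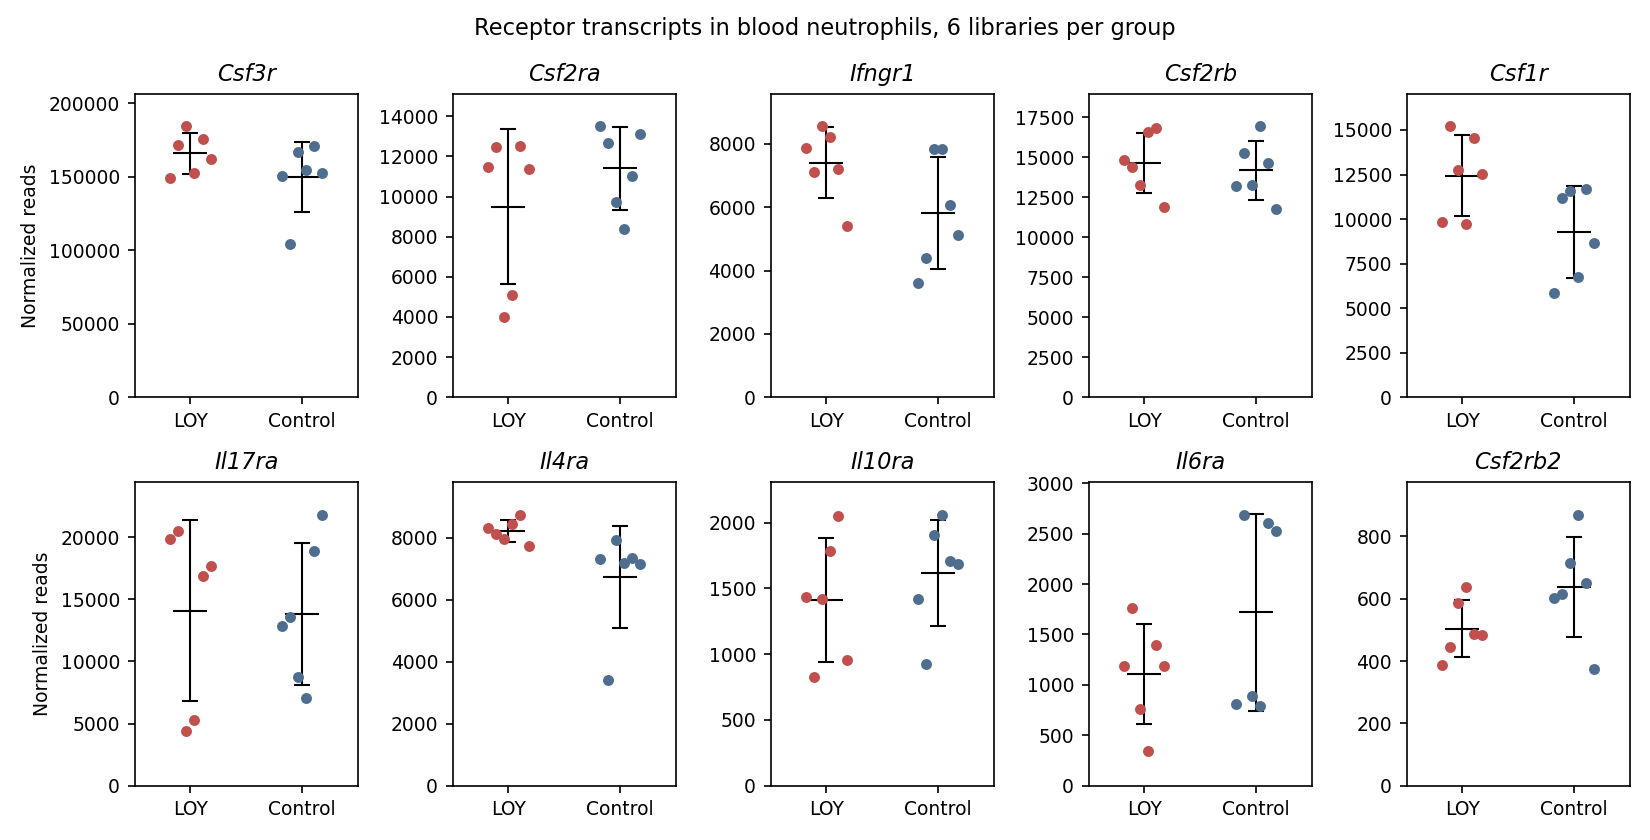
Normalized reads of each receptor gene in the 6 LOY libraries (left in each panel) and the 6 Control libraries (right), with horizontal bars at the mean and error bars of 1 SD. Groups overlap in every panel. Csf1r has 4 of 6 LOY points above the highest control and Il4ra has 5 of 6, while Csf2ra and Il17ra each have LOY 9 and LOY 10 far below the other LOY libraries.

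Il4ra, at chr7:125552120-125579474 in GRCm38, was tightly grouped in LOY libraries. Its lowest, median and highest values were 7726, 8212 and 8741 normalized reads in LOY libraries, against 3415, 7237 and 7919.8 in control libraries. In 5 of 6 LOY libraries it lay above the highest control, and Control 2, at 3415, lay far below every other library. Its log2 fold change was 0.34 ± 0.18 (SE, 95% interval -0.04 to 0.72, limma, adjusted p = 0.810), and without Control 2 it was 0.15. The coefficient of variation was 4.40% in LOY libraries, where 0.447% of tested genes with a mean of 500 or more had a lower one, and 24.4% in control libraries. Il4ra shares 571 exon bases with the antisense gene Gm44876, which has no row in the table analysed here.

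Il4ra pairs with Il2rg, the common gamma chain, for interleukin-4 and with Il13ra1 for either cytokine. Il13ra1 averaged 9470.4 ± 2125 normalized reads in LOY libraries and 8580.0 ± 1348 in control libraries (limma log2 fold change 0.13 ± 0.16 SE, adjusted p = 0.882). Il2rg averaged 310.1 ± 145 in LOY libraries and 312 ± 176 in control libraries, and it was low in LOY 15, at 49.1 (55 reads), and in Control 1, at 1.08 (1 read). The log2 ratio of Il4ra over Il2rg therefore swung with these libraries, averaging 4.99 ± 1.24 in LOY libraries and 5.39 ± 3.15 in control libraries, a difference of -0.40 (exact permutation test, p = 0.968, adjusted p = 0.968) that became 0.88 without Control 1.

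Ifngr1, at chr10:19591949-19610229 in GRCm38, had a lowest, median and highest value of 5419.7, 7550.0 and 8565 normalized reads in LOY libraries, against 3612, 5601 and 7838 in control libraries. In 3 of 6 LOY libraries it lay above the highest control, and the lowest values were those of Control 1 and Control 2. The log2 fold change was 0.39 ± 0.19 (SE, 95% interval -0.03 to 0.81, limma, adjusted p = 0.810), and without Control 1, 2 and 12 it was 0.23.

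Its partner chain Ifngr2, which brings in the second Janus kinase of the receptor, had a different pattern. Ifngr2 had a lowest, median and highest value of 1629, 3993 and 4821 normalized reads in LOY libraries, against 2209, 3900.2 and 7992 in control libraries (limma log2 fold change -0.32 ± 0.38 SE, adjusted p = 0.877). On the log2 scale the ratio of Ifngr1 over Ifngr2 averaged 1.23 ± 0.91 in LOY libraries and 0.51 ± 1.01 in control libraries, a difference of 0.71 (exact permutation test, p = 0.234, adjusted p = 0.385) that was 0.44 without Control 2. The highest ratios, 2.38 in LOY 9 and 2.34 in LOY 10, came with 1.83 in Control 12 and 1.58 in Control 6, so the high libraries came from both groups.

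Il10ra, at chr9:45253837-45269149 in GRCm38, had a lowest, median and highest value of 825, 1427 and 2054 normalized reads in LOY libraries, against 923.6, 1699 and 2062 in control libraries. The groups overlapped almost wholly, with a log2 fold change of -0.22 ± 0.26 (SE, 95% interval -0.78 to 0.33, limma, adjusted p = 0.876), which was -0.082 without LOY 5, -0.12 without LOY 19, -0.14 without Control 12 and -0.38 without Control 2. Il10rb, the chain it pairs with, averaged 3278 ± 832 in LOY libraries and 3319.7 ± 926 in control libraries (limma log2 fold change -0.0025 ± 0.22 SE, adjusted p = 0.999). The log2 ratio of Il10ra over Il10rb averaged -1.25 ± 0.73 in LOY libraries and -1.03 ± 0.57 in control libraries, a difference of -0.22 (exact permutation test, p = 0.571, adjusted p = 0.667).

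Il6ra, at chr3:89864059-89913196 in GRCm38, varied widely. Its lowest, median and highest values were 340.5, 1187 and 1758 normalized reads in LOY libraries, against 790.4, 1708 and 2689 in control libraries. The controls split into a low set, Control 1, 6 and 12 at 790.4 to 890.0, and a high set, Control 2, 17 and 18 at 2526 to 2689, and every LOY library lay below that high set. For Il6ra the log2 fold change was -0.58 ± 0.46 (SE, 95% interval -1.59 to 0.42, limma, adjusted p = 0.846), and without LOY 10 it was -0.28.

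Il6st, which encodes gp130, the signalling chain for interleukin-6, was hardly detected. It was at 122 normalized reads in the library labelled LOY 4 and at 1.75 in Control 18, and at 0 in the other 10 libraries, where the limit that a count of 0 allows, 3 reads, lay between 2.46 and 3.84 normalized reads. Il6st was below the filter and was not tested, and the log2 ratio of Il6ra over Il6st (8.78 ± 2.83 in LOY libraries, 10.28 ± 0.85 in control libraries, exact permutation test, p = 0.234, adjusted p = 0.385) rests mostly on the value of 1 added to each chain, and its difference of -1.50 was -0.40 without the library labelled LOY 4. Il6ra shares 242 exon bases with the antisense gene Gm42809, which averaged 15.3 normalized reads.

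Il17ra, at chr6:120463247-120487559 in GRCm38, had the highest coefficient of variation of the 10 in LOY libraries, 51.7%, against 41.2% in control libraries. Its lowest, median and highest values were 4401, 17295 and 20469 normalized reads in LOY libraries, against 7074, 13207 and 21828 in control libraries. LOY 9, at 4401, and LOY 10, at 5287, lay below every control, and the other 4 LOY libraries lay at 16867 or more, above 4 of the 6 controls. The log2 fold change was -0.11 ± 0.44 (SE, 95% interval -1.06 to 0.85, limma, adjusted p = 0.965), and its sign turned without LOY 9, where it was 0.18, without LOY 10, where it was 0.13, and on the recovered reads with edgeR, where it was 0.044. A difference of either sign and of nearly 1 log2 unit thus lay within the interval. Il17rc, which pairs with Il17ra, had no row in the table analysed here, so that ratio was not computed.

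Il17ra, Csf2ra and Ifngr2 had the same 4 lowest libraries, namely LOY 9, LOY 10, Control 12 and Control 6. Il17ra stood at 7074 in Control 12 and 8718 in Control 6, and Csf2ra at 8376 in Control 12 and 9725 in Control 6. Il6ra had LOY 10, LOY 9 and Control 12 as its 3 lowest, with Control 6 in place 5. Csf3r, Csf2rb and Ifngr1 did not share this order, and Ifngr1 was in fact highest in LOY 9, at 8565, and next in LOY 10, at 8226. Because these 4 libraries come from both groups, the pattern crosses the comparison of LOY with Control.

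Of the 3582 tested genes with a mean of 500 or more, 91 (2.54%) had these same 4 libraries as their lowest and 12 (0.335%) had them as their highest. These libraries were taken as the 4 lowest of Il17ra, which is therefore among the 91 genes by choice, and Csf2ra is among them too. The 91 genes had a median GC content of 51.8%, against 49.7% over all 3582, and a median of 5018 exon bases, against 4529. The longest transcript of Csf2ra has a GC content of 57.8%, higher than that of 91.6% of listed genes, that of Il17ra 52.6% and that of Il6ra 50.4%. Among the 91 were Nfkbiz, a target and mediator of interleukin-17 signalling, and Spi1, the myeloid transcription factor PU.1, both named after their values were seen. What sets these 4 libraries apart was not tested. When they were left out together, the log2 fold change was 0.19 for Il17ra, -0.071 for Csf2ra, -0.51 for Il6ra and 0.51 for Csf1r, and 0 of the 10 receptor genes passed the adjusted threshold.

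**Figure D4:**
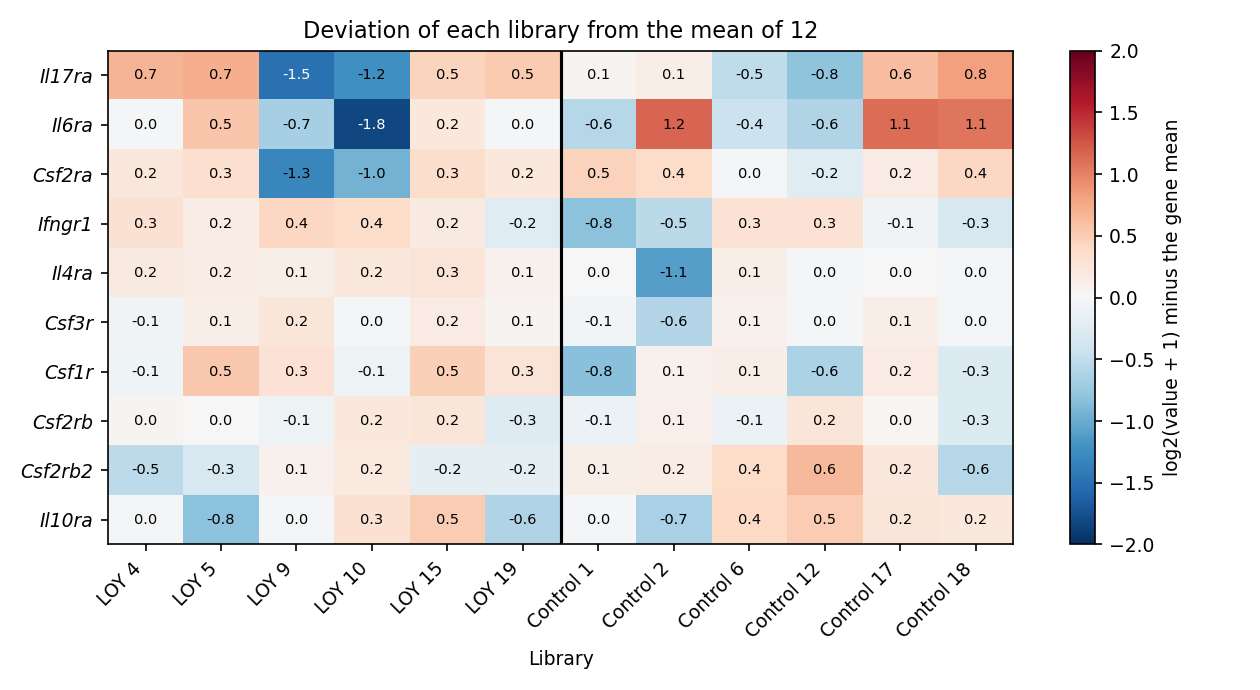
Deviation of each library from the mean of all 12 in log2(value + 1), with 1 row for each receptor gene, LOY libraries left of the line and Control libraries right of it. Blue marks lower and red higher values. Il17ra and Csf2ra are at -0.95 or lower in LOY 9 and LOY 10 and Il6ra reaches -1.8 in LOY 10, while Csf2rb stays within 0.3 of its mean in every library.

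The promoters of Csf2ra and Il6ra are shown because these receptor genes were low in LOY 9, LOY 10 and Control 12 alike. They run from 250 bases before to 50 bases after the start of the gene in RefSeq (GRCm38.p6), 5′ to 3′ on the minus strand, at chr19:61228369-61228668 for Csf2ra and chr3:89913147-89913446 for Il6ra. Of the 10 receptor genes, 6 were searched. Csf2rb, Il17ra and Il10ra had no entry among the promoters used, and Csf1r was left out of the search. The motifs searched on both strands, in capitals where they match, were GGGCGG (the GC box), TGACGTCA (the cyclic AMP response element), TTCNNNGAA (STAT), GAGGAA (ETS factors such as PU.1) and CACGTG (the E-box).
Csf2ra: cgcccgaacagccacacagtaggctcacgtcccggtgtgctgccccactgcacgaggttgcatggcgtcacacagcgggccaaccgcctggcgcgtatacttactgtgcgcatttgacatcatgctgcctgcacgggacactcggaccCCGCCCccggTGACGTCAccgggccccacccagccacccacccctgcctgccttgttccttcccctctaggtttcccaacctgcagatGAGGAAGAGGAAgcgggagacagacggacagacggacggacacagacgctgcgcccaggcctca
Il6ra: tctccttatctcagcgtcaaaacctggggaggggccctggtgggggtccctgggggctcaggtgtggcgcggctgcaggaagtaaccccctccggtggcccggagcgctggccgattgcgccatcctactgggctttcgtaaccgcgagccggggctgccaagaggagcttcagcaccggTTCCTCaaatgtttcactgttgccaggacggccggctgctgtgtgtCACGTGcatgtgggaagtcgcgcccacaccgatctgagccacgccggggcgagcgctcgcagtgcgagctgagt
The Csf2ra window holds 1 GC box, 1 cyclic AMP response element and 2 GAGGAA motifs that lie end to end, and the Il6ra window holds 1 GAGGAA motif and 1 E-box. Among 32851 promoters of the same length, 35.7% hold GGGCGG, 1.79% TGACGTCA, 8.30% TTCNNNGAA, 28.3% GAGGAA and 7.15% CACGTG on either strand. GC content was 65.3% in the Csf2ra window and 66.0% in the Il6ra window, against a median of 52.7% over all promoters. These matches describe the letters only. GAGGAA, which both windows hold, was also found in the promoters of Csf3r (1 match) and Csf2rb2 (2 matches), which were not low in the same libraries, and in 0 of the other 2 searched.

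Downstream of the receptors, 0 of 11 Janus kinases and STATs passed the adjusted threshold, 0 higher and 1 lower in LOY had an unadjusted p under 0.05 (4.40% of all tested genes were higher and 1.63% lower at that p), and their median log2 fold change was -0.06 (4 positive, 7 negative), against 0.14 over all tested genes. The 1 gene was Stat4, which carries interleukin-12 and type I interferon signals. Stat4 had a lowest, median and highest value of 271, 552 and 713 normalized reads in LOY libraries, against 773, 1049 and 1738 in control libraries. All 6 LOY libraries thus lay below all 6 controls, as they did for 0.113% of all tested genes. The log2 fold change of Stat4 was -1.16 ± 0.29 (SE, limma, unadjusted p = 0.00162, adjusted p = 0.479). DESeq2 called Stat4, and the authors' deposited table gives it an adjusted p-value of 0.0319.

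The STATs most tied to the receptors described here did not stand out. Stat5a, used by the GM-CSF receptor, averaged 517 ± 283 normalized reads in LOY libraries and 793 ± 343 in control libraries (limma log2 fold change -0.66 ± 0.38 SE, adjusted p = 0.821). Stat6, used by Il4ra, averaged 15464 ± 756 in LOY libraries and 13806 ± 2632 in control libraries (0.18 ± 0.11 SE, limma, adjusted p = 0.823).

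Of 20 feedback inhibitors and phosphatases, which include the SOCS proteins that shut off JAK signalling, 16 were tested. Of these 0 passed the adjusted threshold or an unadjusted p of 0.05 (9 positive, 7 negative, median log2 fold change 0.04). Over all tested genes 6.04% were under that unadjusted p, and the median log2 fold change was 0.14. Pias4, an inhibitor of STAT proteins, averaged 744 ± 159.7 normalized reads in LOY libraries and 537 ± 178 in control libraries (limma log2 fold change 0.51 ± 0.26 SE, adjusted p = 0.810). Usp18, a negative regulator of the type I interferon receptor, averaged 586 ± 138 in LOY libraries and 780.2 ± 322 in control libraries (-0.36 ± 0.26 SE, limma, adjusted p = 0.832). Socs7 was low, at 49.6 ± 40.9 in LOY libraries and 18.7 ± 19.5 in control libraries (1.44 ± 1.05 SE, limma, adjusted p = 0.839).

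Of 10 adaptors and regulators of the interleukin-17 receptor 8 were tested and 0 passed the adjusted threshold. In each direction 1 had an unadjusted p under 0.05 (4 positive, 4 negative, median log2 fold change -0.01). At that p 4.40% of all tested genes were higher and 1.63% lower in LOY, and their median log2 fold change was 0.14. Tbk1, a kinase that phosphorylates adaptor proteins of this receptor, averaged 1103 ± 192 normalized reads in LOY libraries and 781 ± 312 in control libraries (log2 fold change 0.57 ± 0.25 SE, limma, unadjusted p = 0.0428, adjusted p = 0.810). Traf3, which restrains interleukin-17 signalling, averaged 409.6 ± 151 in LOY libraries and 645 ± 218 in control libraries (-0.68 ± 0.31 SE, limma, unadjusted p = 0.0482, adjusted p = 0.810). Traf2 averaged 495 ± 181 in LOY libraries and 754 ± 249 in control libraries (-0.67 ± 0.35 SE, limma, adjusted p = 0.810).

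Of 20 response genes of these cytokines in neutrophils 16 were tested. Among them 0 passed the adjusted threshold or an unadjusted p of 0.05 (9 positive, 7 negative, median log2 fold change 0.13). The share under that unadjusted p was 6.04% over all tested genes, with a median log2 fold change of 0.14. Bcl3, an atypical inhibitor of NF-kappaB, averaged 541 ± 199 normalized reads in LOY libraries and 862 ± 399 in control libraries (limma log2 fold change -0.65 ± 0.30 SE, adjusted p = 0.810). Cebpb, a transcription factor of emergency granulopoiesis, averaged 136 ± 29.8 in LOY libraries and 298 ± 258 in control libraries (-0.83 ± 0.46 SE, limma, adjusted p = 0.810). Cxcl10, an interferon-induced chemokine, averaged 53.6 ± 24.8 in LOY libraries and 39.4 ± 57.2 in control libraries (2.60 ± 1.28 SE, limma, adjusted p = 0.810). Cxcl10 was at 0, 0, 1.28 and 9.06 in Control 1, 12, 2 and 6 and at 107 and 119 in Control 17 and 18, so its log2 fold change exceeds the fold of the means.

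Of 32 other cytokine receptors and receptor kinases 16 were in the table and 11 were tested. The number past the adjusted threshold or an unadjusted p of 0.05 was 0 (6 positive, 5 negative, median log2 fold change 0.09). Of all tested genes 6.04% were under that unadjusted p, and their median log2 fold change was 0.14. Ifnlr1, the receptor of interferon-lambda, had a lowest, median and highest value of 134, 719.7 and 1148 normalized reads in LOY libraries, against 968, 1029 and 1086 in control libraries, and 5 of 6 LOY libraries lay below every control (limma log2 fold change -0.80 ± 0.41 SE, adjusted p = 0.810, and -0.37 without LOY 10). Ifnar1, a chain of the type I interferon receptor, averaged 2738 ± 512 in LOY libraries and 3385 ± 1054 in control libraries (-0.28 ± 0.19 SE, limma, adjusted p = 0.830). Flt3 was low, at 10.5 ± 18.9 in LOY libraries and 58.8 ± 94.3 in control libraries (-2.37 ± 1.53 SE, limma, adjusted p = 0.826).

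Among 8039 tested genes with a mean of 50 or more, those most like Csf3r over the 12 libraries by Pearson correlation of log2(value + 1) were Usp15 (r = 0.958, Spearman 0.874), Gm17018 (r = 0.954, Spearman 0.825) and Cd69 (r = 0.954, Spearman 0.825). Those most like Csf1r were Ints6 (r = 0.926, Spearman 0.718), Gpr107 (r = 0.911, Spearman 0.790) and Mfng (r = 0.892, Spearman 0.781). These genes were chosen as the highest of many, so the coefficients are a description with no test, and all points share the depth and the share of zeros of their library.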

How the data were processed

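RNA of 12 libraries of sorted mouse blood neutrophils was analysed, 6 LOY and 6 Control. Per the labels' protocols, cDNA was made with SMART-Seq v4 and libraries with Nextera XT, which do not mark strand. Tools listed in the submitters' processing notes are STAR 2.5.2b, Trimmomatic 0.36, bcl2fastq 2.17 and featureCounts with Subread 1.5.2, and the builds are mm10 and GRCm38. The deposited data are 1 table of normalized signal, with a value for every gene in every library, called normalized reads here, for 11494 genes that average 8.63 or more. In each library 100% of values were whole multiples of 1 step within 0.02 reads, so the deposited signal is the number of reads of a gene scaled by 1 factor per library. Per the file headers, log2 fold changes and p-values of the authors stand in the same table, and the sources used here do not give the tool behind them. Of the identifiers 11475 were found in GENCODE vM21, which gave coordinates and lengths, and 16 gene names turned into dates were restored from their identifiers.

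Values were tested with limma 3.58.1 in R 4.3.3 (trended, robust) on log2(value + 1), for 9742 genes with 10 or more normalized reads in at least 6 libraries, with Benjamini-Hochberg adjustment over all of them and a threshold of 0.05. For low genes this scale can understate or overstate a change. Where some libraries are at or near 0, the log2 fold change can exceed the fold of the means, as for Cxcl10. No covariate was used, because the labels give no batch. Chain ratios were compared by exact permutation tests (scipy 1.17.1), and coding sequences were aligned with Biopython 1.88. The scripts were tested on simulated counts.

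Alternatives were pseudocounts of 0.5 and 5, no filter, a mean of 50 or more, quantile and TMM normalization, edgeR 4.0.16 and DESeq2 1.42.0 on the recovered reads, sample weights, each library's share of zeros as a covariate, each library left out, and Control 1, 2 and 12 left out together. Chosen after seeing the data were edgeR without Control 6, LOY 9, LOY 10, Control 6 and Control 12 left out together, and 1 surrogate variable (sva 3.50.0). The receptor genes, lists and tests were chosen with earlier results of these data known. Named genes are the 10 receptor genes, the tested partner chains, the 3 members of each other list with the smallest p, every listed ligand, the 2 highest markers of each other cell type, the 3 genes most like Csf3r and Csf1r, and Ddx3y and Eif2s3y. Genes named beyond these are said to be so, and 1 marker list is not reported here.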

Additional observations from a re-analysis of the deposited data

Results flagged for a closer look

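In 42 sets of 6 libraries, made up of the receptor genes, their partner chains and the chain ratios in each group, 5 had an extreme library whose gap to its nearest neighbour, divided by the range of the set, was above Dixon's 95% critical value of 0.625. Chance alone flags about 1 in 20 sets.

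Csf3r stood at 104006 normalized reads in Control 2, the lowest of the controls, with a gap of 0.7 of the range. Il4ra stood at 3415 in the same library, with a gap of 0.829 of the range. Control 2 was the library with the fewest recovered reads, 13743581, and the largest share of genes at 0, 21.7%, and the part of these in both values was not tested. The other flags were in ratios with a chain of low or no reads in some libraries. The log2 ratio of Il6ra over Il6st was 3.27 in the library labelled LOY 4, where alone Il6st was clearly detected (gap 0.685). The log2 ratio of Il4ra over Il2rg was 7.45 in LOY 15 among LOY libraries (gap 0.788) and 11.8 in Control 1 among control libraries (gap 0.857), the libraries in which Il2rg was lowest.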

How the results depend on the processing

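In the limma fit and under every alternative listed, 0 of the 10 receptor genes passed the adjusted threshold. The sign of Csf2ra, Csf2rb2, Csf1r, Il6ra, Il4ra, Il10ra and Ifngr1 was kept under all 26 alternatives. Csf3r turned to -0.022 with each library's share of zeros as a covariate and to -0.0063 with 1 surrogate variable. Csf2rb ranged from -0.0065 to 0.10 with single libraries left out, the negative value without Control 18. Il17ra turned to 0.044 with edgeR, 0.028 with DESeq2, 0.0070 with sample weights and 0.19 without LOY 9, LOY 10, Control 6 and Control 12, and ranged from -0.28 to 0.18 with single libraries left out. The difference in the log2 ratio of Il10ra over Il10rb ranged from -0.38 to 0.00013, and that of Il4ra over Il2rg from -0.89 to 0.88, with single libraries left out, and that of Il4ra over Il2rg was 0.92 without Control 1, 2 and 12. The count of all genes past the threshold, 2 with limma, was 0 with a mean of 50 or more, quantile normalization, edgeR (286 at an unadjusted p under 0.05), the covariate, 1 surrogate variable, edgeR without Control 6, and both sets of libraries left out, 1 with sample weights, and 54 with DESeq2. With single libraries left out it ranged from 0 to 17, the highest without Control 6, and was 7 without Control 18 and 5 without Control 12. Of the Janus kinases and STATs, 1, Stat4, passed with DESeq2. Among the other named genes, Traf2 was -0.37 without LOY 19, Cebpb -0.48, Stat6 0.099 and Flt3 -1.58 without Control 2, Usp18 -0.18 without Control 12, and Ifnar1 -0.14 and Socs7 0.94 without Control 1. The cause of these changes was not tested. The order of the levels per length was the same for 10 of 10 genes with the longest transcript as length and with medians. No paired analysis was possible because the groups share no replicate number. With 6 libraries a group the intervals of Il6ra, Il17ra, Csf2ra and Il10ra span more than 1 log2 unit, and depth limits what can be said of Il6st, at 0 in 10 libraries.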

Other observations

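Markers of other cell types were read in the same libraries, each list as a summed level in normalized reads. Erythroid markers (6 of 6 in the table, Hba-a1 and Hbb-bs highest) summed to 93360 to 626348 in LOY libraries, with the highest value in LOY 15, and to 72416 to 142237 in control libraries. Markers of neutrophil precursors (7 of 12, Ngp and Ltf highest) summed to 2264 to 5096 in LOY libraries and 1238 to 8068 in control libraries. Ngp averaged 2148 ± 745 in LOY libraries and 3223 ± 2617 in control libraries. Ltf went the other way, at 790 ± 508 in LOY libraries and 99.3 ± 87.2 in control libraries. In 5 of 6 LOY libraries Ltf lay above every control (limma log2 fold change 3.84, adjusted p = 0.602). The authors' deposited table gives Ltf an adjusted p-value of 0.0345. T and NK cell markers (4 of 7, Cd3d and Cd3g highest) summed to 89.2 to 286 in LOY libraries and 161 to 496 in control libraries. Platelet markers (4 of 5, Pf4 and Ppbp highest) summed to 469 to 1123 in LOY libraries and 532 to 1402 in control libraries. Eosinophil (2 of 7, Ccr3 and Ear2), basophil (3 of 5, Ms4a2 and Fcer1a highest) and dendritic cell markers (2 of 5, Flt3 and Clec9a) each summed to 246 or less in every library. No receptor gene was tested against these sums.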
